A study of Saccharomyces cerevisiae with 4 samples.

Results

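The genes described here encode the proteins of the large (60S) subunit of the cytosolic ribosome of the budding yeast Saccharomyces cerevisiae. They were taken from the deposited table by name, as RPL followed by a number and an optional A or B, together with the stalk genes RPP0, RPP1A, RPP1B, RPP2A and RPP2B. The ubiquitin fusion genes RPL40A and RPL40B were left out. This gave 79 of the 7130 rows of the table, made up of 34 pairs of duplicated genes (68 rows) and 11 genes with a single copy. All 79 passed the filter of a mean of at least 1 FPKM (fragments per kilobase of transcript, scaled to the mapped fragments of the library).

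There were 4 libraries of total RNA after removal of rRNA, made from log-phase cells in enriched medium. Libraries 1 and 2 of the group WT came from cells labelled wild type, and libraries 1 and 2 of the group Asr1-RING from cells labelled with a mutation in the RING of Asr1. Asr1 attaches ubiquitin to RNA polymerase II, and its RING finger is the part that recruits the ubiquitin-conjugating enzyme. The labels name neither the strain nor the residues changed. They do not say that replicates came from separate cultures, so every p-value rests on a spread that may be technical. The depth, estimated from the steps between low values, was 47.6 and 41.1 in WT replicates 1 and 2 and 43.2 and 45.35 in Asr1-RING replicates 1 and 2, in units of 1e6 fragments. A count of 3 fragments on 1 kb would give 0.0792 to 0.0917 FPKM, which allows for counting error alone. Every member lay far above this, but shorter genes have a higher floor, which was not computed. RPL43A, with 279 coding bases and 5.68 to 7.13 FPKM, is nearer to its own floor than these values show.

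The large subunit joins amino acids at its peptidyl transferase centre, lets the growing chain out through a tunnel, and recruits translation factors through a flexible stalk. Growing yeast makes ribosomal protein transcripts at very high rates, under the factors Rap1, Fhl1, Ifh1 and Sfp1 and the TOR and Sch9 kinases. After an ancient duplication of the genome most of these genes were kept as pairs, named A and B, whose proteins are identical or nearly so.

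How far the copies of a pair can be told apart depends on their sequences. The coding sequences of the pairs, read from the RefSeq annotation of the reference R64 by locus tag (all 79 genes matched), were 68.9% to 99.4% identical with a median of 93.2%. Of 4 pairs on which results turn, sequences are shown with the bases that differ between copies in capitals. RPL41A and RPL41B encode the smallest ribosomal protein and hold the highest values of the set. Their whole coding sequences of 78 bases differ at 1 position, and both genes lie on the minus strand of chromosome IV.
RPL41A: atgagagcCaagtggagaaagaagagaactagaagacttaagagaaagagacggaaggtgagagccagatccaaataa
RPL41B: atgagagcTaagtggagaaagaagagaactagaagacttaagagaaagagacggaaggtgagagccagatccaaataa

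RPL20, RPP2 and RPL17 are the 3 pairs with the largest change in the ratio of their copies among pairs in which no row overlaps another. The first 90 coding bases of the RPL17 copies (chromosome XI, plus strand, and chromosome X, plus strand) differ at 10 positions, and those of the RPL20 copies (chromosome XIII, minus strand, and chromosome XV, minus strand) at 7.
RPL17A: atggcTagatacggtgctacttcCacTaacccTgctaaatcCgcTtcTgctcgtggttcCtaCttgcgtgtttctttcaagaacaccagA
RPL17B: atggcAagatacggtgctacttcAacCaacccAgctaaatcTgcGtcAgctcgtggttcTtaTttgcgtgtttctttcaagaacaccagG
RPL20A: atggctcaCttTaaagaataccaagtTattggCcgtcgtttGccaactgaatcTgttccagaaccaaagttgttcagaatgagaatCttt
RPL20B: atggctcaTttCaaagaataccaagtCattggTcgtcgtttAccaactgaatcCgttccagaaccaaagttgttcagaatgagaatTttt

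RPP2A and RPP2B encode distinct forms of the acidic stalk protein P2. Their first 90 coding bases (chromosome XV, plus strand, and chromosome IV, plus strand) differ at 44 positions.
RPP2A: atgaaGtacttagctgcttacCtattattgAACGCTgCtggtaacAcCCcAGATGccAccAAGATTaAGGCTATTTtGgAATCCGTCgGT
RPP2B: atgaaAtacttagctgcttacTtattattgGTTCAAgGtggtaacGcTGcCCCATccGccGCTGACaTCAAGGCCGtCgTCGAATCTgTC

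No large-subunit gene passed the test of Asr1-RING against WT. Of the 79 rows 0 were called higher and 0 lower by limma at a Benjamini-Hochberg adjusted p under 0.05, where 1.89% of the 6892 tested rows were called higher and 4.95% lower. Among rows of open reading frames (ORFs) alone these shares were 1.95% and 0.921%. At an unadjusted p under 0.05, 10 members were higher (12.7%, beside 14.6% of all tested rows and 15.4% of ORF rows) and 4 lower (5.06%, beside 11.9% and 7.64%). Together these are 17.7% of the set, beside 26.4% of all tested rows and 23% of ORF rows. The median log2 difference of the members was 0.07 (quartiles -0.08 and 0.18), beside 0.02 over all tested rows and 0.03 over ORF rows. All differences are Asr1-RING minus WT on the scale of log2(FPKM + 1), and the members' ran from -0.40 to 0.42.

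The standard errors of the members ran from 0.0880 to 0.157 with a median of 0.0993 on the log2 scale. The 33 members with both Asr1-RING libraries above both WT libraries made up 41.8% of the set, beside 33% of all tested rows and 34.8% of ORF rows. The 19 with both below made up 24.1%, beside 27.2% and 23.7%. A difference above 0 was found for 53 members, or 67.1%, beside 52.8% of all tested rows and 55.5% of ORF rows.

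The count of calls and many signs changed with the scaling of the libraries. After quantile normalization 29 members, or 36.7%, were called higher and 0 lower, with a median of 0.43. Of all rows 4.45% were then called higher and 4.59% lower, and of ORF rows 4.65% and 1.81%. This scaling put 72 of the 79 members above 0 and turned the sign of 19 of the 26 that were below. Genes named below that it called higher include RPL5 (0.58, adjusted p = 0.0438), RPL9B (0.77, adjusted p = 0.0195) and RPL17A (0.57, adjusted p = 0.0453). With libraries centred on a common median the members' median was -0.0018, 0 members were called, and 15 of the 53 members above 0 came to lie below it. Beside this, rows of small nuclear and nucleolar RNAs made up 55.5% and 51.9% of the summed FPKM in WT and 46.1% and 45.1% in Asr1-RING. The part of these rows in the quantile result was not tested. Without Asr1-RING replicate 1, RPL20A (adjusted p = 0.0491) and RPL7B (adjusted p = 0.0489) were called higher, where 11.3% of all rows were called higher.

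**Figure D1:**
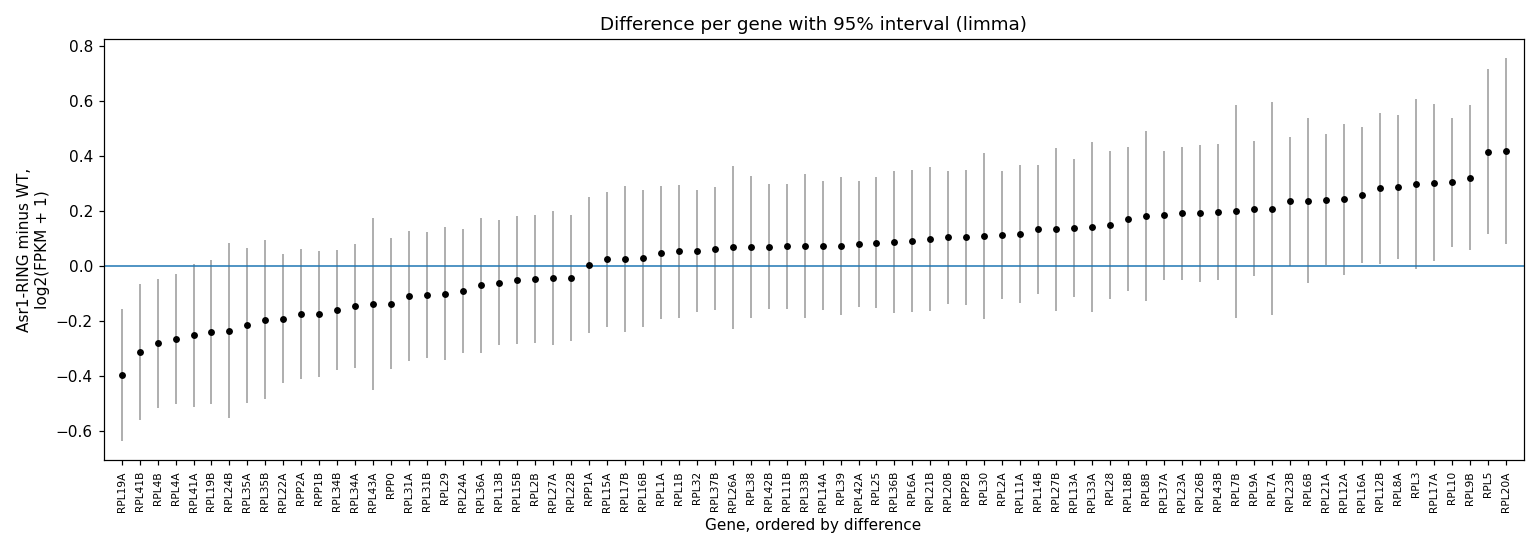
Log2 difference of Asr1-RING minus WT (y axis, log2(FPKM + 1)) for 78 of the 79 genes (x axis, ordered by the difference), with points for limma estimates and bars for 95% intervals, n = 2 libraries per group. The points run from -0.40 for RPL19A, which turned to 0.06 after quantile normalization, to 0.42 for RPL20A, and no gene passed the adjusted threshold.

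The genes differed far more from each other in level than between genotypes. The members' median was 2349.5 and 2380.2 FPKM in WT and 2513 and 2366 FPKM in Asr1-RING. The 2 RPL41 rows stood above all others, with WT means of 152662 ± 3553 FPKM for RPL41B and 124630 ± 661 FPKM for RPL41A (SD, n = 2). Their rows span 78 bp, so these values rest on the effective length used upstream and cannot be set against those of longer genes. Next came RPP2A at 12279 ± 175, RPP1B at 11710.2 ± 240.1, RPL29 at 11386 ± 288 and RPP1A at 10628 ± 320.5 FPKM in WT. Their coding sequences are short too, with 180 bases for RPL29 and 321 for RPP2A, RPP1B and RPP1A. These values may therefore also rest in part on the effective length, which was not tested. RPL29 encodes a small protein that yeast can live without. In Asr1-RING the means of these 4 genes and RPP2B lay between 10381 and 10871 FPKM. The 11 single-copy genes had WT means of 477 to 11386 FPKM.

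**Figure D2:**
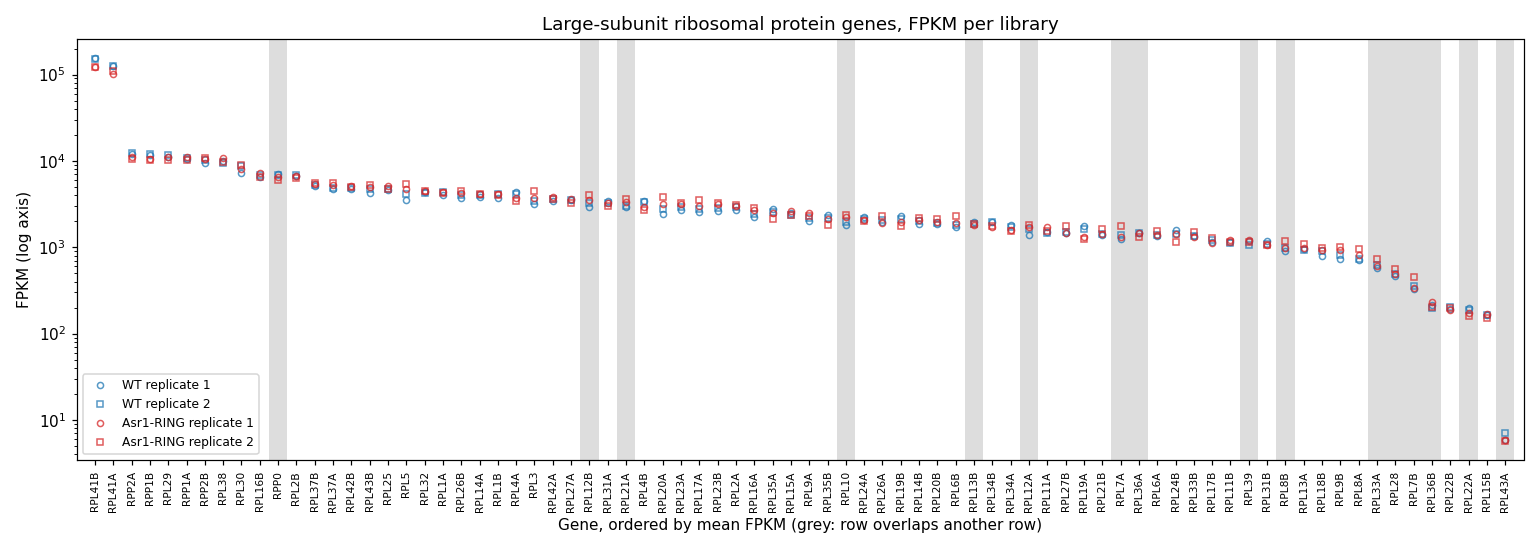
FPKM in each library (y axis, log scale) for 78 of the 79 genes in order of mean FPKM (x axis), with WT in blue, Asr1-RING in red, circles for replicate 1 and squares for replicate 2; grey bands mark rows that overlap another row. The 2 RPL41 rows lie at 100064 FPKM or more in every library, and RPL43A lies between 5.68 and 7.13 FPKM.

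At the low end, many values cannot be read as the gene's own level, because the row overlaps another. The 10 lowest members were RPL8A, RPL9B, RPL33A, RPL28, RPL7B, RPL36B, RPL22B, RPL22A, RPL15B and RPL43A, and 6 of them overlap another row, against 16 of all 79. For 14 members the overlapping row is an ORF on the opposite strand. Whether strand was used in the counting is not stated, so the fragments of such rows cannot be told apart.

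RPL43A (YPR043W, chromosome XVI, 654163 to 654844 in sacCer2) was the lowest, with 5.90 and 7.13 FPKM in WT and 5.92 and 5.68 FPKM in Asr1-RING. The row of OPI11, an ORF on the opposite strand that covers 47.5% of its span, had 3456 and 3417 FPKM in WT and 3483 and 3432 FPKM in Asr1-RING. This is 528 times the RPL43A mean in WT. RPL43B, which overlaps no row, had 4265 and 4696 FPKM in WT and 5048 and 5208 FPKM in Asr1-RING. RPL22A had 197 and 188 FPKM in WT and 175 and 162 FPKM in Asr1-RING, while its partner row BUD28 was 14.02 times as high in WT. RPL36B stood at 206 ± 8.38 FPKM in WT beside 2761 ± 109 FPKM for YPL250W-A, and RPL28 at 477 ± 20.2 beside 4191 ± 215 FPKM for YGL102C. RPL28 encodes the protein whose mutation gives resistance to cycloheximide, and yeast has only this copy.

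In all, the ORF partner had a higher WT mean than the member in 10 cases. RPL10, with 1809 and 1948 FPKM in WT and 2268 and 2366 FPKM in Asr1-RING, is another of these. Its partner YLR076C, which covers 61.3% of the span, had 5188 and 5592 FPKM in WT and 6247 and 6953 FPKM in Asr1-RING. The log2 difference was 0.30 for RPL10 and 0.29 for YLR076C, so the 2 rows of the locus differed by less than the standard error of either. In contrast RPL22B and RPL15B are low without any overlap. RPL22B, whose splicing is known to be limited by the Rpl22 protein, had 192 and 203 FPKM in WT and 186 and 197 FPKM in Asr1-RING. RPL15B had 165 and 166 FPKM in WT and 166 and 153 FPKM in Asr1-RING, and the groups of both genes overlap.

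**Figure D3:**
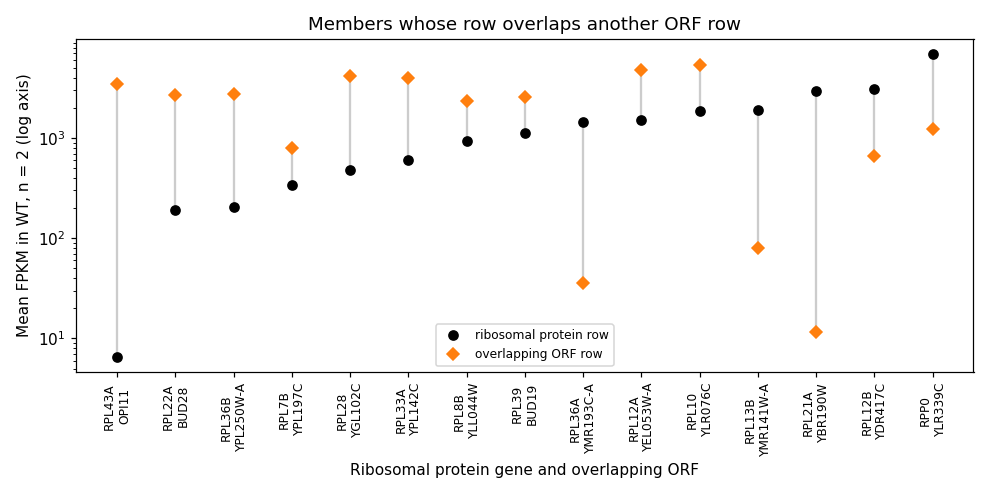
Mean FPKM in WT (y axis, log scale, n = 2) for the ribosomal protein genes whose rows overlap another ORF row (black circles) and for that ORF (orange diamonds), joined by grey lines and ordered by the ribosomal protein's level (x axis). OPI11 lies 528 times above RPL43A, while the ORF rows at RPP0 and RPL12B lie below them.

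Genes for the proteins around 5S RNA and in the core of the subunit had differences on both sides of 0. RPL5 and RPL11 bind 5S ribosomal RNA and enter the subunit as one particle with it. RPL5 (YPL131W, chromosome XVI, 303120 to 304013) had 3555 and 4098 FPKM in WT and 4779 and 5425 FPKM in Asr1-RING. Both mutant libraries of RPL5 lay above both WT libraries, with a mean 33.3% higher and a log2 difference of 0.42 (95% interval 0.12 to 0.72, limma adjusted p = 0.104). RPL11A and RPL11B, the other protein partner of 5S RNA, had differences of 0.12 and 0.07 (adjusted p = 0.507 and 0.664). RPL5 thus had the second largest difference of the set and RPL11B one near the median.

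RPL3, known from resistance to trichodermin and placed at the peptidyl transferase centre, had 3127 and 3476 FPKM in WT and 3713 and 4429 FPKM in Asr1-RING (a log2 difference of 0.30 with a limma adjusted p of 0.201). RPL4, whose protein lines the exit tunnel, had differences below 0 in both copies under each scaling, though only -0.07 and -0.01 after quantile normalization. RPL4A (YBR031W, chromosome II, 300166 to 301254) had 4325 and 4188 FPKM in WT and 3680 and 3404 FPKM in Asr1-RING. RPL4B had 3431 and 3353 FPKM in WT and 2897 and 2689 FPKM in Asr1-RING. The mutant libraries of both copies lay below the WT libraries, by 16.8% and 17.7% in the mean, with log2 differences of -0.27 (95% interval -0.50 to -0.03, adjusted p = 0.154) and -0.28 (95% interval -0.52 to -0.05, adjusted p = 0.135). The copies are 98.9% identical in coding sequence and share an unbroken stretch of 422 bases, so fragments of one copy can be counted for the other.

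Several of these proteins have chaperones of their own. SYO1 (YDL063C), which carries RPL5 and RPL11 into the nucleus, had 26.6 and 25.7 FPKM in WT and 34.2 and 40.4 FPKM in Asr1-RING. Its log2 difference was 0.49 (limma adjusted p = 0.061), with both mutant libraries above both WT libraries. By limma adjusted p it passed with a mean of at least 10 FPKM (0.0445), equal ORF sums (0.0495), robust moderation (0.0413) and without Asr1-RING replicate 1 (0.0116), a setting that called 11.3% of all rows higher. It did not pass under the other alternatives, with 0.127 without the filter, 0.370 without WT replicate 1 and 0.316 without WT replicate 2. SQT1, the chaperone of RPL10, had 107 and 98.5 FPKM in WT and 125 and 122 FPKM in Asr1-RING (difference 0.26, adjusted p = 0.149), and RRB1, the chaperone of RPL3, had a difference of 0.09 (adjusted p = 0.626). In the list of 15 chaperones and importers 0 passed the test and 5 were higher at an unadjusted p under 0.05, where 14.6% of all tested rows and 15.4% of ORF rows were. The list's median was 0.09. Next in order of p were the importins PSE1 and SXM1, which carry ribosomal proteins among other cargo, with differences of 0.42 and 0.37 (adjusted p = 0.0831 and 0.0931, and 0.0164 and 0.0313 without Asr1-RING replicate 1). The list also holds TSR4, known to act on a protein of the small subunit.

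Around the exit of the tunnel the values went both ways. This group holds RPL17, RPL19, RPL25, RPL26, RPL31, RPL35 and RPL39 in 12 rows, of which 6 had a difference above 0 and 6 below (median -0.04). RPL19A (YBR084C-A, chromosome II, 414180 to 415255) had 1739 and 1609 FPKM in WT and 1309 and 1232 FPKM in Asr1-RING, a mean 24.1% lower. Its log2 difference of -0.40 (95% interval -0.64 to -0.16) had the smallest adjusted p of the set, 0.071 by limma, and both mutant libraries lay below WT. The sign held with any single library left out and changed to 0.06 after quantile normalization. RPL19B, 94% identical in coding sequence, had 2293 and 2127 FPKM in WT and 1982 and 1765 FPKM in Asr1-RING. Its difference was -0.24 (limma adjusted p = 0.218), which was 0.29 after quantile normalization.

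RPL17A (YKL180W, chromosome XI, 109274 to 110134) had 2578 and 2748 FPKM in WT and 3030.5 and 3557.5 FPKM in Asr1-RING (difference 0.30, 95% interval 0.02 to 0.59, adjusted p = 0.170). RPL35A and RPL35B, 99.2% identical, had differences of -0.22 and -0.20, and RPL31A and RPL31B of -0.11 and -0.11, all 4 above 0 after quantile normalization. For each of these 4 rows both mutant libraries lay below both WT libraries, as in 27.2% of all tested rows and 23.7% of ORF rows. Copies of a pair are not separate observations where fragments can be counted for either. The limma adjusted p of the 4 rows, without quantile normalization, ran from 0.286 to 0.504. RPL25, the docking protein for the signal recognition particle at the tunnel exit, had 4619 and 4672 FPKM in WT and 5122 and 4739 FPKM in Asr1-RING (difference 0.08, adjusted p = 0.615). At the L1 stalk, on the other side of the subunit, RPL1A and RPL1B both had 0.05 (-0.03 and -0.02 with median centring).

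Of 5 genes whose proteins act where the subunits meet, 4 had differences below 0 (median -0.24), where 55.5% of ORF rows were above 0. These 4 are the copies of RPL41 and RPL24, and the genes were grouped by role after their values were seen. The count is therefore no sign of a shared response. RPL41 forms a bridge between the subunits. RPL41B (YDL133C-A, chromosome IV, 221724 to 221801) had 155174 and 150149 FPKM in WT and 122642 and 122927 FPKM in Asr1-RING, and RPL41A had 124163 and 125098 FPKM in WT and 100064 and 109346 FPKM in Asr1-RING. The groups did not overlap for either, with differences of -0.31 (adjusted p = 0.121) and -0.25 (adjusted p = 0.200), which were -0.10 and 0.17 after quantile normalization. As the sequences above show, the coding sequences share all but 1 base, so the split between them is uncertain. RPL24A and RPL24B, also part of a bridge, had differences of -0.09 and -0.24 (adjusted p = 0.564 and 0.301), which were 0.40 and 0.21 after quantile normalization. RPL10, which must be in place before the subunits can join, was the row above 0 among those chosen. Its difference was 0.30 (95% interval 0.07 to 0.54, limma adjusted p = 0.118), and 0.71 after quantile normalization (adjusted p = 0.0168). As given above, YLR076C overlaps 61.3% of its span and had a difference of 0.29, so the RPL10 value cannot be read as the gene's own.

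The share of the set in all ORF signal turned on the RPL41 rows. Members took up 28.1% and 28.0% of the FPKM summed over ORF rows in WT and 25.8% and 25.9% in Asr1-RING. Over all rows in place of ORF rows the direction turned, with 9.71% and 10.8% in WT against 12.7% and 12.9% in Asr1-RING. With 2 libraries against 2 the exact two-sided permutation test cannot give a p below 0.333, the value found for both shares. The RPL41 rows alone made 15.05% and 14.7% of the ORF sum in WT, against 12.1% and 12.4% in Asr1-RING. Without them the members' share of ORF rows was 15.3% and 15.6% in WT against 15.6% and 15.4% in Asr1-RING (exact permutation p = 1), so the groups then overlapped.

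The stalk recruits elongation factors to the ribosome. RPP0 is its anchor, and the acidic proteins P1 and P2 bind to RPP0 as dimers of 1 P1 and 1 P2 protein. RPP0 (YLR340W) had 7031 and 6802 FPKM in WT and 6501 and 6084 FPKM in Asr1-RING (difference -0.14, adjusted p = 0.401). RPP1A had 10401 and 10855 FPKM in WT and 11105 and 10225 FPKM in Asr1-RING, and RPP1B had 11540.4 and 11880.0 FPKM in WT and 10480 and 10282 FPKM in Asr1-RING. RPP2A had 12155 and 12402 FPKM in WT and 11203 and 10539 FPKM in Asr1-RING, while RPP2B had 9463 and 10322 FPKM in WT and 10477 and 10769 FPKM in Asr1-RING. Thus RPP0, RPP1B and RPP2A had both mutant libraries below WT, although their differences were above 0 after quantile normalization, RPP2B had both above, and RPP1A overlapped. RPP0 also overlaps the ORF row YLR339C. P1A with P2B and P1B with P2A are known as the preferred partners, with differences of 0.00 for RPP1A, 0.10 for RPP2B, -0.17 for RPP1B and -0.18 for RPP2A (adjusted p from 0.289 to 0.985). RPL12A and RPL12B, at the base of the stalk, had 0.24 and 0.28 (adjusted p = 0.230 and 0.179), and each overlaps an ORF row on the opposite strand over 62.4% of its span.

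Between the copies of a pair the balance differed from pair to pair. In WT the more abundant copy was 1.03 to 688 times the other, with a median of 1.67. It was copy A in 18 pairs and copy B in 16, the copies were less than 1.5 times apart in 17 pairs and at least 2 times apart in 16. The most uneven pairs included RPL43, already described, RPL15 (A 14.8 times B) and RPL36 (A 7.09 times B). For RPL36 the lower copy lies under a more abundant opposite ORF row, whereas no row of RPL15 overlaps another. RPL15A had 2506 and 2380.2 FPKM in WT and 2602 and 2367 FPKM in Asr1-RING, and RPL36A had 1471 and 1449 FPKM in WT and 1466 and 1318 FPKM in Asr1-RING, so the groups of both overlapped. The most even pair without an overlap was RPL23, whose copies had 2687 and 2633 FPKM in WT replicate 1.

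**Figure D4:**
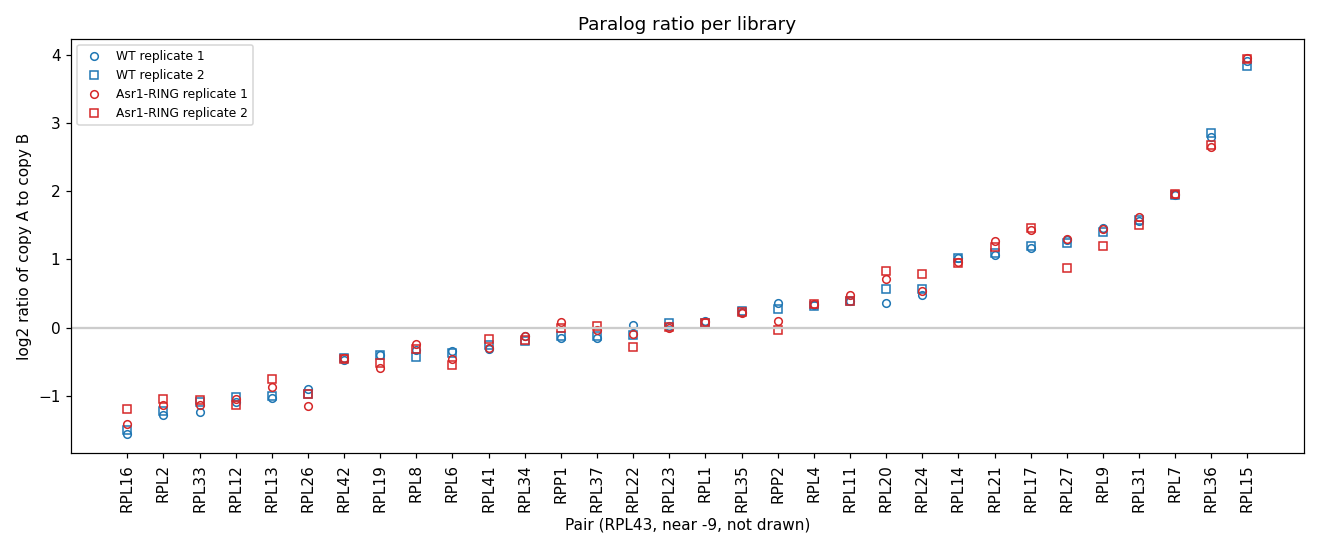
Log2 ratio of copy A to copy B (y axis) in each library for 32 of the 34 pairs (x axis, ordered by the WT mean ratio; RPL43 is among those not drawn), with WT in blue, Asr1-RING in red, circles for replicate 1 and squares for replicate 2. The spread within a pair, such as 3.84 to 3.96 for RPL15 and 0.35 to 0.84 for RPL20, is small beside the range over pairs, though neighbouring pairs overlap.

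Whether the mutation shifts this balance was tested on the log2 ratio of A to B in each library. The test ran over all 102 pairs of rows in the table whose names differ only in a final A or B. Of these, 62 have standard gene names. The others share a stem in their names, which need not mark duplicated genes. Shares over the 102 are thus not a background of duplicated genes alone. No large-subunit pair passed (0 of 34), where 0.98% of the 102 pairs did (the rows YOL013W-A and YOL013W-B, which have no standard gene name). Of the large-subunit pairs 7 had an unadjusted p under 0.05 (20.6%, beside 15.7% of all 102). The ratios of the groups did not overlap in 21 of the 34 pairs (61.8%), beside 64.7% of all 102. The smallest adjusted p belonged to RPL17, where the log2 ratio was 1.16 and 1.19 in WT against 1.44 and 1.47 in Asr1-RING. The difference was 0.28 (SE 0.0360, limma adjusted p = 0.1503). It passed when only the 62 pairs with standard gene names were tested, which was tried after seeing the data (adjusted p = 0.0471). After quantile normalization RPL17A had a difference of 0.57 and RPL17B of 0.58, so the change in ratio was then -0.01. RPL17A had the difference given above and RPL17B one of 0.03, with 1154 and 1203 FPKM in WT and 1119 and 1287 FPKM in Asr1-RING.

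For RPL20 the log2 ratio was 0.35 and 0.56 in WT against 0.71 and 0.84 in Asr1-RING (difference 0.31, SE 0.105, adjusted p = 0.261). RPL20A (YMR242C, chromosome XIII, 753224 to 754219) had 2398 and 2808 FPKM in WT and 3159 and 3804 FPKM in Asr1-RING, the largest difference of the set at 0.42 (95% interval 0.08 to 0.76, adjusted p = 0.129). RPL20B, with 1876 and 1905 FPKM in WT and 1936 and 2131 FPKM in Asr1-RING, had 0.10. Among the 6 pairs with the largest changes in ratio, the others were RPL43 (-0.33, SE 0.0647), RPP2 (-0.28, SE 0.0730), RPL16 (0.23, SE 0.103) and RPL13 (0.20, SE 0.0583), all with adjusted p from 0.257 to 0.281. The RPL43 value rests on the RPL43A row of under 8 FPKM. RPL16A had 2211 and 2404 FPKM in WT and 2668 and 2849 FPKM in Asr1-RING, and RPL16B had 6552 and 6838 FPKM in WT and 7153 and 6512 FPKM in Asr1-RING. RPL13A had 957 and 931 FPKM in WT and 978 and 1100.5 FPKM in Asr1-RING, whereas RPL13B had 1959 and 1863 FPKM in WT and 1797 and 1866 FPKM in Asr1-RING.

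The 2 copies of a pair often lay on the same side of 0. Both differences were above 0 in 18 pairs and both below in 8, the same sign in 26 of 34. Copy A was above 0 in 22 pairs and copy B in 22, so shared signs would be common without any tie between copies. The side of 0 also depends on the scaling, with 53 members above 0 here, 38 with median centring and 72 after quantile normalization. Over the 34 pairs Pearson's r of the differences of A and B was 0.65, a description across pairs that share the same 4 libraries. It was 0.93 over the 11 pairs with a coding identity of at least 95% and 0.51 over the 23 pairs below that. Near-identical copies can exchange fragments, and the part of this in the likeness was not tested. In the 16 pairs under 95% in which no row overlaps another, r was 0.58 and 12 pairs had the same sign. The median size of the ratio change was 0.05 in the more identical pairs and 0.15 in the others. The copies of RPL1, 99.4% identical, differed in their change by -0.00.

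**Figure D5:**
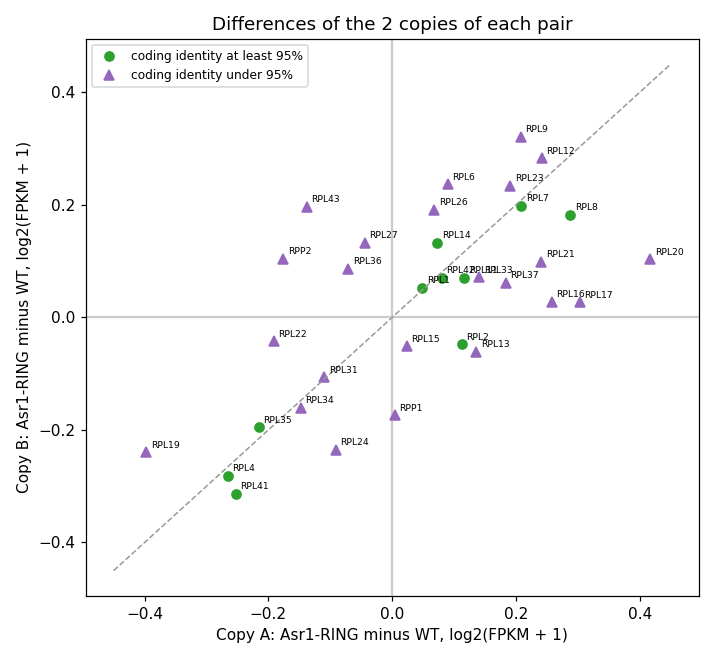
Log2 difference of Asr1-RING minus WT for copy B (y axis) against copy A (x axis) of 33 of the 34 pairs, with green circles for pairs at least 95% identical in coding sequence, purple triangles for the rest and a dashed line of equal values. Among the 10 circles RPL2 lies farthest from the line, with 0.11 for copy A and -0.05 for copy B (r = 0.93 over all 11 such pairs). Of all pairs drawn, RPL20, RPL17, RPL43 and RPP2 lie farthest from it.

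Other pairs whose copies lay on the same side included RPL9 and RPL8. RPL9B (YNL067W, chromosome XIV, 499683 to 500258) had 732 and 820.1 FPKM in WT and 926 and 1012 FPKM in Asr1-RING (difference 0.32, 95% interval 0.06 to 0.58, adjusted p = 0.132), and RPL9A had 0.21. RPL8A had 711 and 731 FPKM in WT and 821 and 943 FPKM in Asr1-RING (difference 0.29, adjusted p = 0.159), and RPL8B had 0.18. RPL34A and RPL34B had -0.15 and -0.16 (0.30 and 0.33 after quantile normalization), and the mutant libraries of both lay below WT (adjusted p = 0.351 and 0.300). The 23 members outside the roles and the rule for named genes, RPL9A and RPL34 among them, had WT means of 477 to 9739 FPKM and differences of -0.16 to 0.24, with 20 above 0 and 3 below and a smallest adjusted p of 0.186.

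RPL7A and RPL7B host small nucleolar RNAs in their introns. RPL7A had 1259 and 1393 FPKM in WT and 1326 and 1766 FPKM in Asr1-RING, and RPL7B had 327 and 360 FPKM in WT and 340 and 455 FPKM in Asr1-RING. Their differences were 0.21 and 0.20 and the groups overlapped (adjusted p = 0.436 and 0.457). The intron row SNR59 within RPL7B had 4352 and 4221 FPKM in WT and 2072 and 2650 FPKM in Asr1-RING, and it fell by 0.87 on the log2 scale (limma adjusted p = 0.0209), with a difference of -0.61 after quantile normalization. Of the 84 tested rows of small nuclear and nucleolar RNAs 65.5% were called lower. SNR39 within RPL7A had a difference of -0.24 (limma adjusted p = 0.223), which was 0.24 after quantile normalization. Without Asr1-RING replicate 2 the RPL7B difference was -0.01.

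Members were also described by gene structure and by letters in their promoters. By the R64 annotation 51 members have an intron in the coding sequence, with a median difference of 0.08, and 28 have none, with 0.05. The 11 single-copy genes had a median of 0.08 and the 68 paired ones 0.07. The core of the Rap1 site, searched as ACCCNNACA on both strands of the 400 bases before the start codon in R64, was found for 30 of the 79 members (38.0%) and for 4.35% of 6026 genes. Members with and without it had medians of 0.08 and 0.07. The core of the Abf1 site, searched as TCA, any 6 bases and ACG on both strands and free to overlap the first motif, was found for 10 members (12.7%, beside 18.9% of genes), with medians of -0.02 with it and 0.08 without. A match is a run of letters and not a site shown to be bound.

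Among the regulators, ABF1 was the one gene of the list of 20 that passed, and it was lower. Over all tested rows 4.95% were called lower, and over ORF rows 0.921%. ABF1 encodes a general regulatory factor that binds many promoters, those of some ribosomal protein genes included. It had 19.3 and 18.3 FPKM in WT and 13.1 and 10.6 FPKM in Asr1-RING and fell by 0.63 on the log2 scale (SE 0.127, limma adjusted p = 0.0448). Leaving out 1 library ended this call for WT replicate 1 (adjusted p = 0.340), WT replicate 2 (adjusted p = 0.214) and Asr1-RING replicate 2 (adjusted p = 0.0526). It also ended without the filter (0.116), without the trend (0.0510) and among ORF rows alone (0.0652). The other 19 regulators did not pass. The list's median was 0.08, with MRS6 at 0.41, REB1 at -0.36 and UTP22 at 0.39 next in order of p (adjusted p = 0.107, 0.167 and 0.173). In the list of 12 enzymes that modify large-subunit proteins 0 passed, with a median of 0.15. The 3 with the smallest p were YHL039W (EFM1), MNI1 (HPM1) and RKM1, all methyltransferases (EFM1 is known for acting on an elongation factor), with differences of 0.34, 0.24 and 0.30 (adjusted p = 0.142, 0.154 and 0.197). Without Asr1-RING replicate 1 the differences of YHL039W and RKM1 were 0.47 and 0.43.

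For the small subunit the same counts were made. Of 56 RPS rows 0 were called in either direction, where 1.89% of all tested rows were called higher and 4.95% lower. At an unadjusted p under 0.05, 7 were higher (12.5%, beside 14.6% of all tested rows) and 0 lower (beside 11.9%). The median difference was 0.12, with 80.4% above 0, beside 52.8% of all tested rows. Both Asr1-RING libraries lay above WT in 55.4% of RPS rows and below in 8.93%, beside 41.8% and 24.1% of the large-subunit rows. Over all tested rows these shares were 33% and 27.2%. The difference between the subunits was not tested. After quantile normalization 46.4% of RPS rows were called higher, beside 4.45% of all tested rows and 4.65% of ORF rows. The 108 other ORF rows at or above the lower quartile of the members' levels had a median of 0.01. Alpha-cell genes (4 rows, WT means of 348 to 4159 FPKM) and a-cell genes (7 rows, 2.59 to 56.8 FPKM) were not called in either direction, with medians of 0.03 and 0.10.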

How the data were processed

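RNA was sequenced in 4 libraries, 2 WT and 2 Asr1-RING, grouped and numbered by the sample titles. The authors deposited 1 table of FPKM values with 1 column per library, and 0 value columns were left unused. TopHat2, Cufflinks and the build sacCer2 are named per the submitters' processing notes. Not given in the sources used here are their versions, the annotation and the use of strand. Deposited starts count from 0, since adding 1 gives the R64 gene length for all 79 members, so coordinates are printed from 1. R64 gave sequences and introns by locus tag and no coordinates.

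A pseudocount of 1 was added to FPKM before taking log2, and the 6892 rows whose mean reached 1 FPKM were fitted by limma with an intensity trend. The residual degrees of freedom were 2 and the prior ones 3.71, and p-values were adjusted by Benjamini-Hochberg over all fitted rows. Fold changes of low rows are understated on this scale. Ratios of A to B were fitted by limma without a trend over 102 pairs. Coding identity came from global alignment. Depths were estimated from ORF rows of 350 to 3000 bp with 0.5 to 8.5 fragments, after taking 204 bp off the length; 86.7% to 90.2% of the 51 to 63 rows used were whole within 0.1. FPKM are not counts, and no count model was used. The tests were checked on simulated data. The errors there were independent, and the changes added were larger than the difference of any member or large-subunit pair. The check therefore does not show how often changes of the sizes reported here would be called.

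The members and lists were chosen with earlier results of these data known. Genes were named by rule: the 6 largest rises and 6 largest falls without overlap of groups, the 6 pairs with the largest change and the 4 most uneven, the 5 highest and 5 lowest, the stalk genes and hosts of small RNAs, and for each list the called genes or the 3 with the smallest p. The values of 1 member are not reported here, though it is counted in the totals. Others were named for their role, after their values were seen. Alternatives were pseudocounts of 0.1 and 5, filters, scalings, moderation, the replicate block, ORF rows alone, each library left out, and, tried after seeing the data, pairs with standard gene names alone. Python 3.11.15, pandas 2.3.3, numpy 2.4.6, scipy 1.17.1, Biopython 1.88, matplotlib 3.10.9, R 4.3.3 and limma 3.58.1 were used.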

Additional observations from a re-analysis of the deposited data

How the results depend on the processing

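The count of 0 called members held under pseudocounts of 0.1 and 5, both filters, median centring, equal ORF sums, both forms of moderation, the replicate block and ORF rows alone. It was 29 higher after quantile normalization, 0 to 2 higher with single libraries left out and 1 lower at an adjusted p under 0.1. The members' median was 0.43 after quantile normalization, -0.0018 with median centring and 0.05 to 0.09 with single libraries left out. The difference in the members' share was 2.54 percentage points over all rows, 0.0545 without RPL41A and RPL41B, -4.16 against ORF rows outside the members that do not overlap a small RNA row and -2.16 as reported. Large-subunit pairs called numbered 1 with standard gene names alone (adjusted p = 0.0471 for RPL17). The causes were not tested. Over all rows the higher and lower calls, 130 and 341, became 21 and 182 without a filter, 216 higher with a mean of at least 10 FPKM, 70 higher with median centring, 307 higher after quantile normalization, 209 higher with equal ORF sums, 256 higher with robust moderation, 237 higher with the replicate block, 36 and 23 with ORF rows alone, and 16 to 781 higher and 197 to 553 lower with single libraries left out.

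The labels do not say that replicate numbers mark a shared batch, and deviations of same-numbered libraries correlated at -0.0712 over 6892 rows and at 0.569 over the 79 members, so members of same-numbered libraries deviated together. The replicate block left 0 members and 0 large-subunit pairs called.

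Over all members 19 signs turned after quantile normalization and 15 with median centring. Of the genes named by rule, after quantile normalization the differences were 0.41 for RPL13B, 0.0608 for RPL19A, 0.29 for RPL19B, 0.38 for RPL29, 0.41 for RPL36A, 0.17 for RPL41A, 0.0993 for RPP0, 0.29 for RPP1B and 0.26 for RPP2A. With median centring they were -0.0516 for RPL15A, -0.0467 for RPL16B, -0.0483 for RPL17B and -0.0707 for RPP1A. With single libraries left out the differences ran from -0.0450 to 0.0914 for RPL15A, from -0.113 to 0.00986 for RPL15B, from -0.0397 to 0.0958 for RPL16B, from -0.0744 to 0.127 for RPL17B, from -0.147 to 0.00604 for RPL36A, from -0.00327 to 0.175 for RPL36B, from -0.0108 to 0.408 for RPL7B and from -0.0555 to 0.0637 for RPP1A. With 1 library left in a group, that library is assumed to vary like the others. The overlapping row OPI11 limits RPL43A, and the effective length limits RPL41A and RPL41B and may limit other short genes such as RPL29.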
